A study of Mus musculus with 14 samples.

Results

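The nuclear genes of oxidative phosphorylation were read in cloned and fertilised mouse blastocysts. Members were chosen by name, as every gene probe of the array whose gene name began with *Nduf*, *Sdh* followed by a to d, *Uqcr*, *Cox4* to *Cox8* or *Atp5*. This gave 82 of the 27962 gene names on the array, read by 113 of its 41174 gene probes, of which 37 genes belonged to complex I, 4 to complex II, 7 to complex III, 17 to complex IV and 16 to complex V by name. The last gene, *Cox4nb* (now *Emc8*), carries the name of its neighbour *Cox4i1* and is no subunit. *Ndufaf1*, an assembly factor of complex I, and *Atp5s* (now *Dmac2l*) share the names but are not subunits either, and were kept because the rule took them. Where a gene had more than 1 probe, as 25 genes did, it was read by its brightest probe.

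Oxidative phosphorylation passes electrons from NADH (complex I) and succinate (complex II) through ubiquinone to complex III, then through cytochrome c to complex IV, which reduces oxygen. Complexes I, III and IV pump protons across the inner mitochondrial membrane, and complex V, the ATP synthase, makes ATP as the protons return. Most subunits are encoded in the nucleus and a few, at the heart of complexes I, III, IV and V, in mitochondrial DNA. The preimplantation embryo is known to raise its respiration towards the blastocyst stage, when the trophectoderm pumps fluid into the cavity.

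All samples were blastocysts of embryonic day 4.0 grown in KSOM medium. The 4 fusion clones and the 4 injection clones were female embryos made by nuclear transfer from cumulus cells, with the donor cell fused to the oocyte or its nucleus injected. The controls were 3 female and 3 male embryos made by in vitro fertilisation (IVF). The labels give no genotype, and the study's methods describe cumulus donors that carry *Xist* knocked out on 1 X chromosome and oocytes of a BDF1 background, with IVF controls matched for sex and genotype. The labels' extraction text names parts of single embryos while the tissue is given as blastocyst. The study's methods describe such parts for implanted embryos recovered from the uterus, and the labels alone do not settle the part behind each sample. Each of the 14 samples was amplified in a pair of linear rounds and read on 1 single-colour array.

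Each group lay on a slide of its own. Both clone slides were read on 1 scanner, with 0 gene spots below 0 after the scanner software's background subtraction, and both IVF slides on another with another software version, with 6790 to 9981 gene spots below 0 per array, so slide, scanner and the contrast of clone with IVF cannot be told apart. Between 57.45% and 65.22% of gene spots were well above background on each array. Summed signals of the lineage markers also differed between the groups, although the ranges of fusion clones and female IVF embryos overlapped for each lineage. The 6 trophectoderm markers on the array summed to 671000 to 860000 in fusion clones and 596000 to 827000 in injection clones, against 820000 to 982000 in female and 889000 to 930000 in male IVF embryos. *Krt8* and *Krt18* carry most of that sum, at mean log2 levels of 18.53 and 18.02 in fusion clones, with *Gata3* next at 15.65. Against female IVF embryos 4 of the 6 had a lower mean in fusion clones and 2 a higher one. *Elf5* fell by 2.96 log2 units (limma, adjusted p = 0.016), while *Eomes* and *Gata3* were 0.475 and 0.31 higher without passing. The 5 epiblast markers summed to 99000 to 116000 and 105000 to 145000 in the clones against 83100 to 100000 and 89400 to 91100 in female and male IVF embryos. *Zfp42* is the brightest of these. Of the 5, 2 had a higher mean than in female IVF embryos in fusion clones and 3 in injection clones. The 5 primitive endoderm markers summed to 85000 to 183000 in fusion clones, 72700 to 147000 in injection clones, 126000 to 191000 in female and 88300 to 130000 in male IVF embryos. *Gata6*, the brightest of them, differed from female IVF embryos by 0.23 log2 units in fusion and -0.10 in injection clones. The median difference of the 5 was -1.51 in fusion clones, where 4 had lower means. In injection clones it was -2.47, with 5 of 5 lower, and 0 were called in either group (limma). The 7 cumulus cell markers summed to 119 to 201 in fusion clones, 112 to 189 in injection clones, 124 to 526 in female and 136 to 1670 in male IVF embryos. These ranges overlapped. *Ptx3*, *Tnfaip6* and *Inhba* lay at the lowest value allowed in all clones and all female IVF embryos, each well above background on 1 array only. Against female IVF embryos *Cyp11a1* was at -1.31 in fusion and -1.84 in injection clones and *Has2* at -1.41 and -1.36. *Fshr* was at 0.42 and 0.63, and *Lum* at 0.60 in fusion clones, all without passing. The part of these differences in the results below was not tested, and in samples that mix cell types fewer cells of a type and less RNA per cell cannot be told apart.

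Signals are given as log2 of the normalised processed signal, on which 1 unit is a 2-fold change, and every difference below is one of group means on that scale. Of the 82 genes, 78 were well above background on all 14 arrays and 4, *Cox4i2*, *Cox6a2*, *Cox8b* and *Cox8c*, on some arrays only. The mean log2 level of the 78 genes ran from 8.74 to 18.23 with a median of 15.31, and 57 of them lay at 14 or above. The median level was 15.03 for complex I, 13.47 for complex II, 15.81 for complex III, 16.06 for complex IV and 16.14 for complex V. Since probes differ in how strongly they bind, no order of abundance between genes or complexes was read from these levels.

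The spread between embryos of a group was close to that of other bright probes. The median standard deviation (SD) within a group was 0.17 log2 units over the 78 members in fusion clones, 0.18 in injection clones, 0.27 in male and 0.24 in female IVF embryos. For the 2532 probes of the whole array at a level of 14 or above it was 0.18, 0.21, 0.26 and 0.23, and for all 17964 probes above background everywhere 0.31, 0.37, 0.45 and 0.39. In each group the value over the members lay below that of the array as a whole. Complex V had the lowest median SD of the 5 complexes in fusion clones (0.12), injection clones (0.15) and female IVF embryos (0.17), and complex III in male IVF embryos (0.25).

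**Figure D1:**
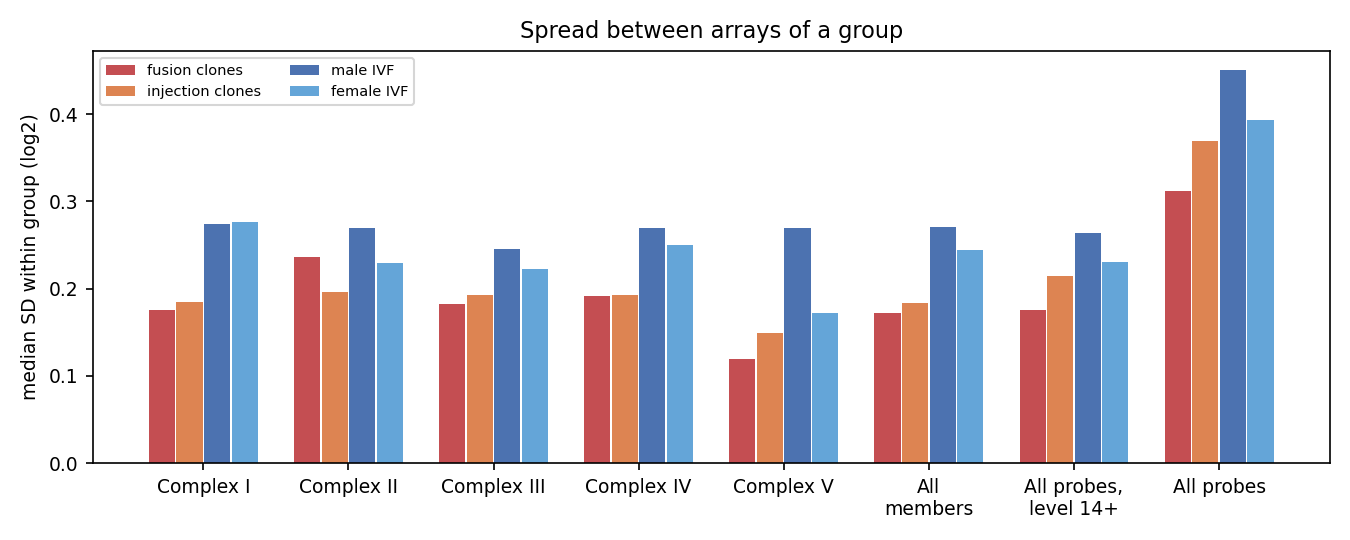
Bars give the median over genes of the SD between arrays of a group (log2 units) for complexes I to V, all 78 members above background on every array, all probes at a mean log2 level of 14 or above and all probes above background, in 4 groups of 3 or 4 arrays. In each group the bar of all members lies near that of probes at level 14 or above (0.17 against 0.18 in fusion clones) and below that of all probes (0.31).

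Both clone groups were compared with female IVF embryos, the control of the same sex. In fusion clones 3 members fell (*Ndufb4*, *Ndufa4* and *Uqcrh*) and 1 rose (*Uqcrb*), and in injection clones 4 fell (*Ndufb4*, *Ndufb5*, *Uqcrh* and *Atp5b*) at an adjusted p below 0.05 (limma, Benjamini-Hochberg over all probes tested). The 4 of 82 genes called in fusion clones make 4.88%, against 9.49% of all 32458 probes tested (4.32% higher and 5.17% lower). The 4 of 82 in injection clones again make 4.88%, against 3.67% of all 32840 probes (1.53% higher and 2.14% lower). The first share lay below its background and the second close to it, so neither count is a result about the members. Without fusion clone 1, 3 or 4 or female IVF embryo 2 the fusion count was 1, and without female IVF embryo 1 it was 6. The injection count was 0 without injection clone 1, 2 or 3 or female IVF embryo 3, 2 without female IVF embryo 2 and 6 without female IVF embryo 1. At the threshold of the study's methods, an unadjusted p below 0.05 and at least a 2-fold change, 2 members were lower in fusion clones (background 8.59%) and 1 in injection clones (background 7.08%). Both contrasts use the same 3 control arrays, so their likeness is not counted here.

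Most members had a lower mean in the clones without passing the test. In fusion clones 58 of 82 genes had a lower mean than in female IVF embryos, against 56.3% of all probes, and the median difference was -0.17 against -0.12 over all probes. In injection clones 59 of 82 had a lower mean, against 55.2% of all probes, and the median difference was -0.23 against -0.07. Values of 22 genes in fusion clones lay wholly below the female IVF values (background 15.4%) and of 6 wholly above (background 10.4%). In injection clones 27 lay wholly below (background 12.5%) and 3 wholly above (background 8.39%). These backgrounds count dim probes too, while 78 of the members were above background on every array. Of the 17946 tested probes above background on all 14 arrays, 3790 lay wholly below and 2198 wholly above in fusion clones. Their median was -0.16, with 59.3% lower. For injection clones the counts were 3102 and 1920, with a median of -0.12 and 57.2% lower. Without female IVF embryo 1, the lowest of the controls over these genes, the medians were -0.33 in fusion and -0.36 in injection clones. Without female IVF embryo 3 they were -0.11 and -0.20. The distance from the median of all probes varied with the setting: in fusion clones it was -0.05, with a range of -0.31 to -0.001 over the other settings, and in injection clones -0.16, with a range of -0.38 to -0.11.

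By complex, the median difference in fusion clones was -0.15 for complex I, -0.18 for complex II, -0.12 for complex III, -0.28 for complex IV and -0.16 for complex V. In injection clones it was -0.21, -0.27, -0.23, -0.27 and -0.16 in the same order. The sign held in each complex under every other processing setting, except that complex III turned to 0.14 and 0.05 when all probes of a gene were averaged.

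**Figure D2:**
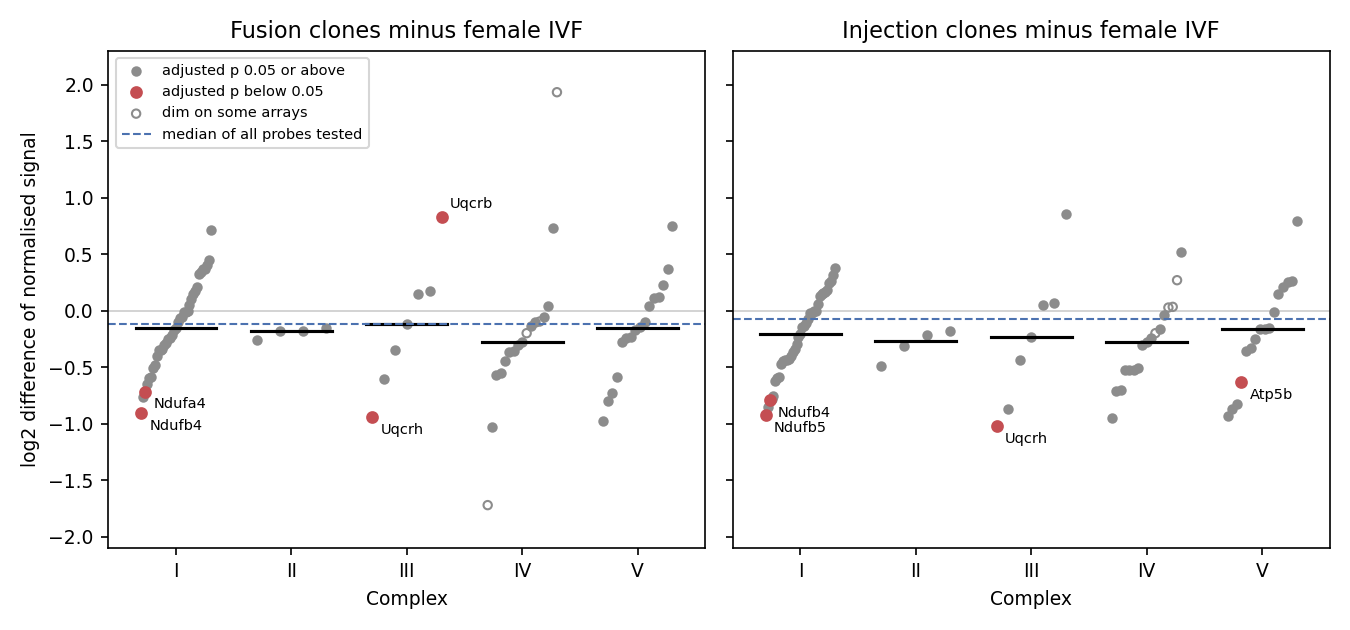
Each point is 1 gene of complexes I to V, placed by its log2 difference of mean normalised signal between fusion clones (left, n = 4) or injection clones (right, n = 4) and the same female IVF embryos (n = 3); black bars are medians, the dashed line is the median of all probes tested, red points passed an adjusted p of 0.05 and open points were above background on some arrays only. All medians of complexes lie below 0, from -0.12 to -0.28, and the called genes are labelled.

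The shift was also read array by array, as the median over genes of each array's difference from the female IVF mean. For complex IV it was -0.35 to -0.23 in the 4 fusion clones and -0.44 to -0.26 in the 4 injection clones, against -0.16 to 0.20 in the 6 IVF embryos, so every clone lay below every IVF embryo. The same median for complex I was -0.27 to -0.07 in fusion clones, -0.29 to -0.18 in injection clones, 0.01 to 0.34 in male IVF embryos and -0.20 to 0.09 in female IVF embryos, where female embryo 1 lay among the clones. For complexes II, III and V the clone and IVF arrays also overlapped. Over all 17964 probes above background the array medians were -0.18 to -0.14 in fusion clones, -0.19 to -0.005 in injection clones, -0.05 to 0.07 in male and -0.03 to 0.05 in female IVF embryos, so the clone arrays lay low over all probes as well. The separation in complex IV did not hold beside that shift. Fusion clone 2 read -0.23 for complex IV and -0.14 over all probes, while female IVF embryo 1 read -0.16 and 0.05. Measured from its own array, that IVF embryo lay lower than the clone.

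**Figure D3:**
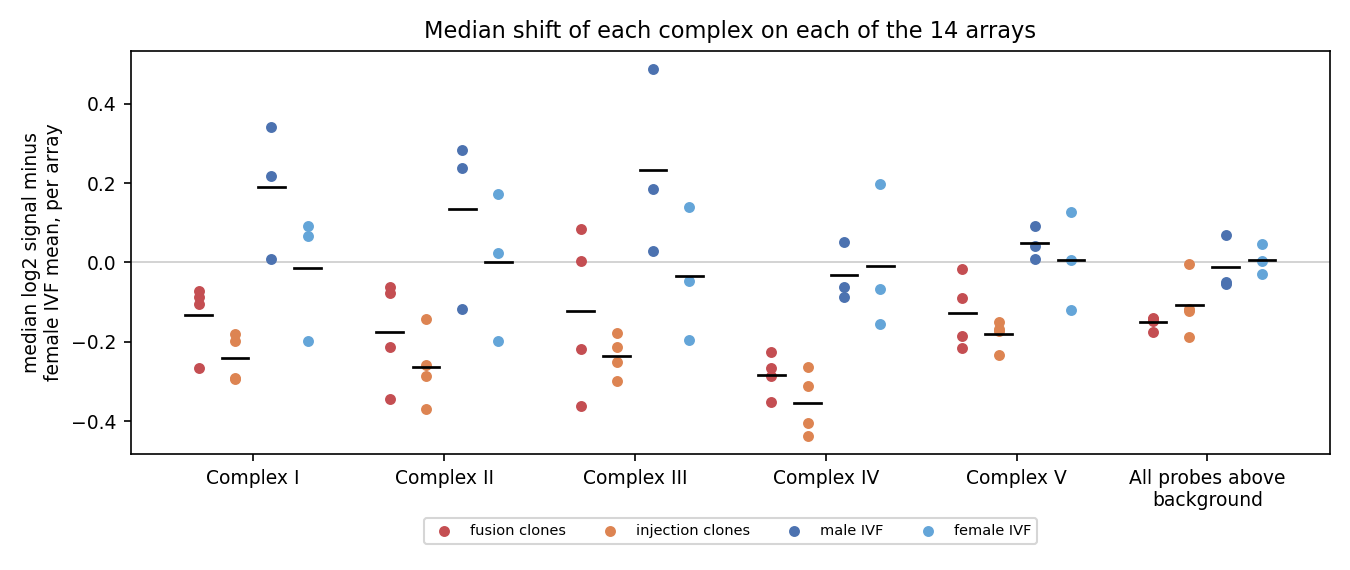
Points are the 14 arrays in 4 groups, and the vertical axis is the median over genes of the log2 signal minus the female IVF mean for complexes I to V and for all probes above background, with black bars at the group means. Complex IV separates all 8 clones (-0.44 to -0.23) from all 6 IVF embryos (-0.16 to 0.20), while female IVF embryo 1 lies among the clones for complex I. The values are not corrected for each array's shift over all probes, beside which the complex IV separation does not hold.

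Promoters of some members that lay low in the clones are shown because nuclear respiratory genes are known to share short promoter motifs. The choice followed no fixed rule. *Uqcr* and *Atp5k* are printed though called in neither clone group against female IVF embryos. *Ndufb5* and *Ndufa4*, which were called, are not printed, and neither adds a match to the counts below. Of the 82 genes, 67 had a promoter entry in RefSeq (GRCm38.p6), a window of 250 bases before to 50 after the start site. The motifs were searched on both strands, and none of them contains another, although the NRF1 core can overlap its own inverse. The NRF1 core GCGCATGC was in 10 of the 67 windows (14.9%), against 3.05% of 27025 genes. The YY1 motif AAGATGGC was in 10 (14.9% against 3.19%) and the ETS motif CCGGAAGT in 5 (7.46% against 4.31%). The CCAAT box was in 28 (41.8% against 41.1%), the GC box GGGCGG in 28 (41.8% against 38.2%) and the TATA box TATAAA in 6 (8.96% against 15.7%). Among the 17492 protein-coding genes with an entry the shares were 3.94% for the NRF1 core, 3.57% for YY1, 5.69% for ETS, 42.3% for CCAAT, 49.2% for the GC box and 14.8% for TATA, so the members' share of GC boxes lay above that of all genes and below that of protein-coding ones. A match describes the letters of the window and says nothing of binding. The window of *Uqcr* also holds an NRF1 core and that of *Ndufb4* a CCAAT box, neither of them wholly within the 150 bases printed. The 150 bases before the start site are printed 5′ to 3′ on the gene's strand, with motif letters in capitals, for *Uqcrh* (chr4:116075071-116075220, minus strand; a CCAAT box and an inverted ETS motif, 52 and 11 bases before the start), *Uqcr* (now *Uqcr11*, chr10:80406822-80406971, minus strand; an ETS motif at 66 bases), *Ndufb4* (chr16:37654369-37654518, minus strand; an inverted GC box at 110 bases), *Atp5b* (chr10:128083157-128083306, plus strand; CCAAT boxes at 147 and 75 bases and an inverted GC box at 45) and *Atp5k* (chr5:108434400-108434549, minus strand; an NRF1 core at 50 bases and its inverse at 48).
Uqcrh: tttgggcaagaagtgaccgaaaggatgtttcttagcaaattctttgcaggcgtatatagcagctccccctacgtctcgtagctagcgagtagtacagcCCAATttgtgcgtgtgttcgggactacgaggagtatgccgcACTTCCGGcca
Uqcr: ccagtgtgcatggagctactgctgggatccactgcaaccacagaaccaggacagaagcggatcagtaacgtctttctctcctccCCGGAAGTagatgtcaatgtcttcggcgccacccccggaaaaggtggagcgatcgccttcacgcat
Ndufb4: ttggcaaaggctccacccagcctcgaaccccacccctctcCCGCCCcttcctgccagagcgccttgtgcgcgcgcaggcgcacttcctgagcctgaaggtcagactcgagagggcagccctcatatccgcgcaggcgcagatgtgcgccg
Atp5b: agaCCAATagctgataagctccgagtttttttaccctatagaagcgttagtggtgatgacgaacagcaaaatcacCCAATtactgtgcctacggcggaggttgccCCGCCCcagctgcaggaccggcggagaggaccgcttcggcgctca
Atp5k: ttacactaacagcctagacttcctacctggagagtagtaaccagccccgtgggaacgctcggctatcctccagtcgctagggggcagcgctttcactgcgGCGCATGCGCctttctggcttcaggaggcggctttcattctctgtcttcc

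In complex I, *Ndufb4* fell in both clone groups. It and *Ndufb5* encode accessory subunits of the membrane arm. The log2 signal of *Ndufb4* was 13.79, 13.81, 13.82 and 13.60 in fusion clones 1 to 4, 13.89, 13.68, 13.88 and 14.01 in injection clones 1 to 4, 14.98, 14.41 and 14.30 in male IVF embryos 1 to 3 and 14.60, 14.65 and 14.72 in female IVF embryos 1 to 3. All 8 clones lay below all 6 IVF embryos. The difference from female IVF embryos was -0.91 in fusion clones (SE 0.15, adjusted p = 0.0188) and -0.80 in injection clones (SE 0.13, adjusted p = 0.0396). In fusion clones the call held when any 1 array was left out, and in injection clones it was lost without injection clone 1, 2 or 3 or female IVF embryo 2 or 3, where the adjusted p reached 0.0812.

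*Ndufb5* read 12.65, 13.54, 13.37 and 13.27 in fusion clones, 13.10, 13.05, 12.89 and 13.15 in injection clones, 13.82, 14.32 and 14.38 in male and 13.85, 14.14 and 13.93 in female IVF embryos. The clones again lay wholly below the IVF embryos, and fusion clone 1 was the lowest. The difference was -0.92 in injection clones (SE 0.14, adjusted p = 0.0326) and -0.77 in fusion clones (SE 0.25, adjusted p = 0.109), which did not pass. The injection call was lost without injection clone 1, 2 or 3 or female IVF embryo 3.

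*Ndufa4*, named for complex I and found with cytochrome c oxidase, read 14.94, 15.20, 14.77 and 14.86 in fusion clones, 15.08, 14.95, 14.72 and 15.54 in injection clones, 15.54, 15.40 and 15.16 in male and 15.70, 15.67 and 15.63 in female IVF embryos. Every clone was below every female IVF embryo, but fusion clone 2 lay among the male values and injection clone 4 just above them. It fell by 0.72 in fusion clones (SE 0.17, adjusted p = 0.0449), and the difference of -0.59 in injection clones did not pass (SE 0.21, adjusted p = 0.173). The fusion call was lost when any array but fusion clone 2 was left out, with adjusted p of 0.0575 to 0.0781. Its isoform *Ndufa4l2* had no probe under that name. The other 34 genes of complex I gave no call in either clone group. Among its core subunits the 3 of the NADH-binding arm had lower means in both clone groups, and the 4 of the quinone-binding arm were split evenly in sign.

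**Figure D4:**
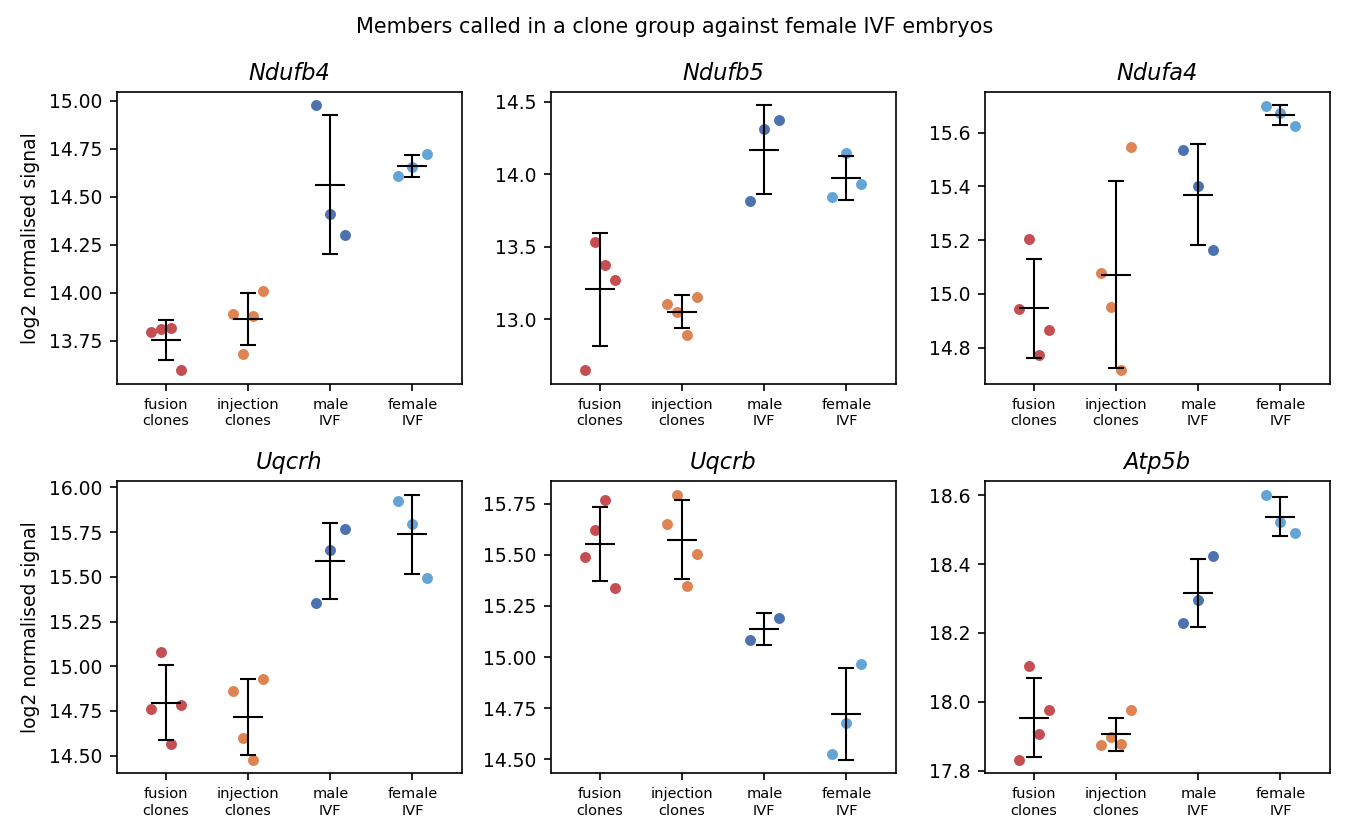
Log2 normalised signal on each array (points) with the group mean and SD (bars; n = 4 in each clone group and 3 in each IVF group, 2 for *Uqcrb* in male IVF embryos) for the 6 genes called in a clone group. In *Ndufb4*, *Ndufb5*, *Uqcrh* and *Atp5b* all 8 clones lie below all 6 IVF embryos, and in *Uqcrb* all 8 lie above; the axes do not start at 0 and differ between genes.

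Complex II, the 4 subunits of succinate dehydrogenase, gave no call in any comparison (limma), and none of the 4 had an unadjusted p below 0.05 against female IVF embryos in either clone group. *Sdha*, the flavoprotein, read 13.17, 13.53, 13.81 and 13.32 in fusion clones, 13.46, 13.12, 13.43 and 13.70 in injection clones, 13.77, 13.84 and 14.23 in male and 13.39, 13.66 and 13.78 in female IVF embryos. *Sdhb*, the iron-sulfur subunit, read 12.81, 13.42, 13.30 and 13.50, then 13.11, 13.11, 13.09 and 13.16, then 13.74, 13.77 and 13.50, and 13.13, 13.60 and 13.57 in the same order of groups. For both genes the clone and female IVF values overlapped.

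The membrane anchor *Sdhc* read 13.13, 12.84, 12.71 and 13.05 in fusion clones, 11.97, 13.02, 12.86 and 12.96 in injection clones, 12.78, 13.08 and 13.37 in male and 13.01, 13.20 and 13.37 in female IVF embryos. The other anchor, *Sdhd*, read 14.41, 14.62, 14.65 and 14.25, then 14.41, 14.25, 14.52 and 14.61, then 14.27, 15.10 and 14.97, and 14.65, 14.38 and 14.97. Injection clone 1 stood apart in *Sdhc*, and otherwise the groups overlapped. From *Sdha* to *Sdhd* the differences were -0.15, -0.18, -0.26 and -0.18 in fusion clones (smallest adjusted p 0.421) and -0.18, -0.32, -0.49 and -0.22 in injection clones (smallest adjusted p 0.289).

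In complex III a pair of accessory genes moved in opposite directions. *Uqcrh*, the hinge protein that meets cytochrome c1, read 14.76, 15.08, 14.57 and 14.78 in fusion clones, 14.86, 14.60, 14.48 and 14.93 in injection clones, 15.35, 15.65 and 15.77 in male and 15.92, 15.80 and 15.49 in female IVF embryos. All clones lay below all IVF embryos. It fell by 0.94 in fusion clones (SE 0.20, adjusted p = 0.0361) and by 1.02, or 2.03-fold, in injection clones (SE 0.18, adjusted p = 0.045), and its second probe passed in both contrasts. The call of the brighter probe was lost in fusion clones without fusion clone 1, 3 or 4 or female IVF embryo 1 or 2, with an adjusted p of up to 0.0758, and in injection clones without any array but injection clone 4, with an adjusted p of up to 0.102.

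*Uqcrb*, a ubiquinone-binding subunit, read 15.49, 15.62, 15.77 and 15.34 in fusion clones, 15.65, 15.80, 15.35 and 15.51 in injection clones, 15.08 and 15.19 in male IVF embryos 1 and 3 and 14.53, 14.68 and 14.97 in female IVF embryos. The spot of male IVF embryo 2 was marked as an outlier by the scanner software and dropped by the fit. All 8 clones lay above all measured IVF embryos. It rose by 0.83 in fusion clones (SE 0.19, adjusted p = 0.0439) and was 0.85 higher in injection clones, short of the threshold (SE 0.18, adjusted p = 0.057). The fusion call was lost without any array but female IVF embryo 3, with an adjusted p of up to 0.0914. The other 5 genes of complex III gave no call. The nearest to *Uqcrh* in size was *Uqcr*, a small accessory subunit named here after its values were seen, at -0.61 in fusion and -0.87 in injection clones.

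Complex IV, sorted by name, gave no call in either clone group (limma, with 4 of 17 genes at an unadjusted p below 0.05 in each). *Ndufa4*, found with cytochrome c oxidase and called in fusion clones, was counted under complex I. Its array medians lay apart only while the shift over all probes was left in. Without the 6 tissue-restricted isoforms, 10 of its 11 genes had lower means in fusion clones, with a median of -0.31, and 11 of 11 in injection clones, with a median of -0.51. *Cox4i1*, the ubiquitous form of subunit 4, read 16.88, 17.11, 16.98 and 17.13 in fusion clones, 16.92, 16.99, 16.96 and 16.82 in injection clones, 17.57, 17.58 and 17.11 in male and 17.07, 17.10 and 17.09 in female IVF embryos. Male IVF embryos 1 and 2 were the high samples, and the differences from female IVF embryos were -0.06 and -0.17. Its lung form *Cox4i2* was above background on 4 arrays only, 2 of injection clones and 2 of female IVF embryos, and never exceeded 4.54, near the lowest value allowed of 4.0.

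*Cox6a1*, the ubiquitous form of subunit 6a, read 16.21, 16.49, 16.11 and 16.21 in fusion clones, 16.29, 16.39, 16.02 and 16.004 in injection clones, 16.91, 16.66 and 16.48 in male and 16.06, 16.02 and 16.56 in female IVF embryos, and the clone and female values overlapped. *Cox6a2*, the heart and skeletal muscle form, read 8.28, 5.36, 7.33 and 4.87 in fusion clones, 5.20, 4.02, 5.24 and 4.73 in injection clones, 4.84, 4.0 and 4.0 in male and 4.34, 5.24 and 4.0 in female IVF embryos. Fusion clones 1 and 3 stood above the rest, and the difference of 1.93 from female IVF embryos did not pass (adjusted p = 0.222).

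*Cox6b1*, the ubiquitous form of subunit 6b, read 12.70, 13.02, 12.75 and 13.20 in fusion clones, 12.86, 12.78, 12.51 and 12.95 in injection clones, 13.49, 13.36 and 13.32 in male and 12.83, 13.18 and 13.13 in female IVF embryos, so the clones overlapped the female and lay below the male embryos. The testis form *Cox6b2* read 11.53, 11.45, 11.08 and 11.20 in fusion clones, 11.63, 11.26, 11.12 and 10.40 in injection clones, 9.98, 10.44 and 9.77 in male and 10.41, 10.79 and 10.54 in female IVF embryos. All fusion clones exceeded all IVF embryos in *Cox6b2*, by 0.73 over the female embryos (SE 0.19, adjusted p = 0.0611), while injection clone 4 lay among the IVF values and the difference was 0.52 (SE 0.31, adjusted p = 0.371).

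For subunit 7a, the muscle form *Cox7a1* read 8.68, 8.43, 8.24 and 7.93 in fusion clones, 7.47, 8.57, 8.55 and 9.004 in injection clones, 9.92, 9.09 and 8.46 in male and 9.74, 9.30 and 9.006 in female IVF embryos. The ubiquitous *Cox7a2* read 15.86, 16.12, 16 and 15.94 in fusion clones, 15.82, 15.86, 15.68 and 16.03 in injection clones, 16.47, 16.07 and 16.37 in male and 16.38, 16.53 and 16.75 in female IVF embryos. Both lay lower in every clone than in every female IVF embryo, at -1.03 and -0.95 for *Cox7a1* (adjusted p = 0.0587 and 0.219 in fusion and injection clones) and at -0.57 and -0.71 for *Cox7a2* (adjusted p = 0.0789 and 0.0628). *Cox7a2l*, a factor that joins complexes III and IV, differed by -0.37 and -0.52 with overlapping values of 11.69 to 12.72 in clones and 12.52 to 13.22 in female IVF embryos.

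For subunit 8, the ubiquitous *Cox8a* read 16.67, 17.10, 16.81 and 17.11 in fusion clones, 16.91, 16.10, 16.61 and 16.43 in injection clones, 17.32, 17.37 and 17.09 in male and 16.85, 16.91 and 17.31 in female IVF embryos, and clones of both groups overlapped the female values. The muscle form *Cox8b* was above background on 1 array of all 14, a female IVF embryo. The testis form *Cox8c* was not well above background on any fusion clone or male IVF array, and was measured on 3 of 4 injection clones and 2 of 3 female IVF embryos. With the lowest value allowed set at 4.0, the female mean was 3.30-fold higher than the fusion level (adjusted p = 0.18). That fold is not exact and is no bound, since not every female array was well above background.

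In complex V, *Atp5b*, the catalytic beta subunit of the F1 head, read 17.83, 18.10, 17.90 and 17.98 in fusion clones, 17.88, 17.90, 17.88 and 17.98 in injection clones, 18.23, 18.30 and 18.42 in male and 18.60, 18.52 and 18.49 in female IVF embryos. All clones lay below all IVF embryos, with the male embryos between. The difference was -0.63 in injection clones (SE 0.11, adjusted p = 0.0443) and -0.58 in fusion clones (SE 0.15, adjusted p = 0.0575). The injection call was lost without injection clone 1, 2 or 3 or female IVF embryo 3. It also rests on the brightest of 3 probes, since the others differed by 0.13 and 0.18 in injection clones, and the mean of the 3 by -0.22 (adjusted p = 0.503).

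The c-ring of the ATP synthase is built from 1 mature protein encoded by *Atp5g1*, *Atp5g2* and *Atp5g3*. *Atp5g1* read 13.50, 13.32, 13.24 and 13.58 in fusion clones, 13.65, 13.39, 13.37 and 13.33 in injection clones, 15.22, 14.40 and 13.77 in male and 12.81, 14.01 and 13.93 in female IVF embryos. The 8 clones lay between 13.24 and 13.65 while the 6 IVF embryos ran from 12.81 to 15.22, and the differences were -0.17 and -0.15. *Atp5g2* read 16.15, 16.20, 16.11 and 16.23, then 16.19, 16.003, 16.09 and 16.23, then 16.88, 16.62 and 16.30, and 16.34, 16.43 and 16.59, with all clones below all IVF embryos at -0.28 and -0.33 (adjusted p = 0.273 and 0.207).

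*Atp5g3* read 18.11, 18.59, 18.36 and 18.31 in fusion clones, 18.41, 18.55, 18.38 and 18.16 in injection clones, 17.76, 18.12 and 18.12 in male and 18.12, 17.97 and 18.26 in female IVF embryos. It lay 0.23 and 0.26 above the female embryos with overlapping values. The 3 small Fo membrane subunits, named here after their values were seen, had the lowest differences of the complex: *Atp5l* (subunit g) at -0.98 in fusion and -0.93 in injection clones, *Atp5j2* (subunit f) at -0.80 and -0.83, and *Atp5k* (subunit e) at -0.73 and -0.88. None of the 3 passed in either contrast (smallest adjusted p 0.0717 and 0.0662). Their array medians were -0.98 to -0.58 in fusion clones and -1.01 to -0.61 in injection clones, against -0.35 to 0.53 in IVF embryos, with no overlap. Since the 3 were picked for their low values, this separation carries no weight. The clone arrays also lay low over all probes above background, at -0.18 to -0.14 and -0.19 to -0.005.

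Fusion and injection clones were then compared directly. None of the 81 members tested was called, and 0.0% of all 32303 probes was (limma, with 3 members at an unadjusted p below 0.05), while 1 member, *Cox8c*, passed the threshold of the study's methods, as did 2.38% of all probes. The median difference, fusion minus injection, was 0.08 against -0.01 over all probes. The smallest p was that of *Ndufa10*, an accessory subunit of complex I, which read 13.28, 13.38, 13.38 and 13.16 in fusion clones and 12.10, 12.82, 12.90 and 11.92 in injection clones. The groups did not overlap and differed by 0.86 (SE 0.24, unadjusted p = 0.00952, adjusted p = 0.666). *Ndufa13*, also known as GRIM-19, read 15.37, 15.39, 15.30 and 15.32 against 15.16, 15.18, 14.99 and 15.12, a difference of 0.23 (SE 0.08, adjusted p = 0.76). *Cox8c* read 4.0 in every fusion clone and 5.76, 5.78, 4.0 and 7.48 in injection clones, whose mean was 3.38-fold higher (adjusted p = 0.771). Both groups hold values at the lowest value allowed, so that fold is not exact.

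Male and female IVF embryos gave 0 called members of 82 (limma, with 5 at an unadjusted p below 0.05), and 0.0593% of all 32046 probes were called. The 3 members on the X chromosome are *Ndufa1*, *Ndufb11* and *Cox7b*, which encode accessory subunits of complex I (the first pair) and a subunit of complex IV. *Ndufa1* read 14.46, 14.79 and 15.10 in male and 15.79, 15.56 and 16.15 in female IVF embryos, with 15.41, 16.15, 15.78 and 15.95 in fusion clones and 15.76, 16.005, 15.61 and 15.66 in injection clones. All 11 female embryos lay above the 3 male embryos. The male mean differed from that of female IVF embryos by -1.05 (SE 0.29, unadjusted p = 0.0118, adjusted p = 0.518), which made it the only member past the threshold of the study's methods (2.07-fold), as were 5.79% of all probes. The clones differed from female IVF embryos in *Ndufa1* by -0.02 (fusion) and -0.08 (injection).

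*Cox7b* read 14.43, 14.42 and 14.50 in male and 14.92, 15.01 and 15.43 in female IVF embryos, 14.46, 14.92, 14.83 and 14.06 in fusion clones and 14.30, 14.21, 14.21 and 14.97 in injection clones. The male embryos lay wholly below the female embryos, with a difference of -0.67 (SE 0.23, adjusted p = 0.611), and the clones spread over both. The clones were at -0.55 and -0.70 from female IVF embryos (adjusted p = 0.247 and 0.171). *Ndufb11* read 16.42, 16.18 and 16.08 in male, 16.33, 16.62 and 16.46 in female, 15.92, 16.18, 16.21 and 16.21 in fusion and 15.76, 16.12, 15.95 and 16.27 in injection clones. Its male and female values overlapped, and every clone lay below every female IVF embryo, at -0.34 and -0.44 (adjusted p = 0.238 and 0.191).

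**Figure D5:**
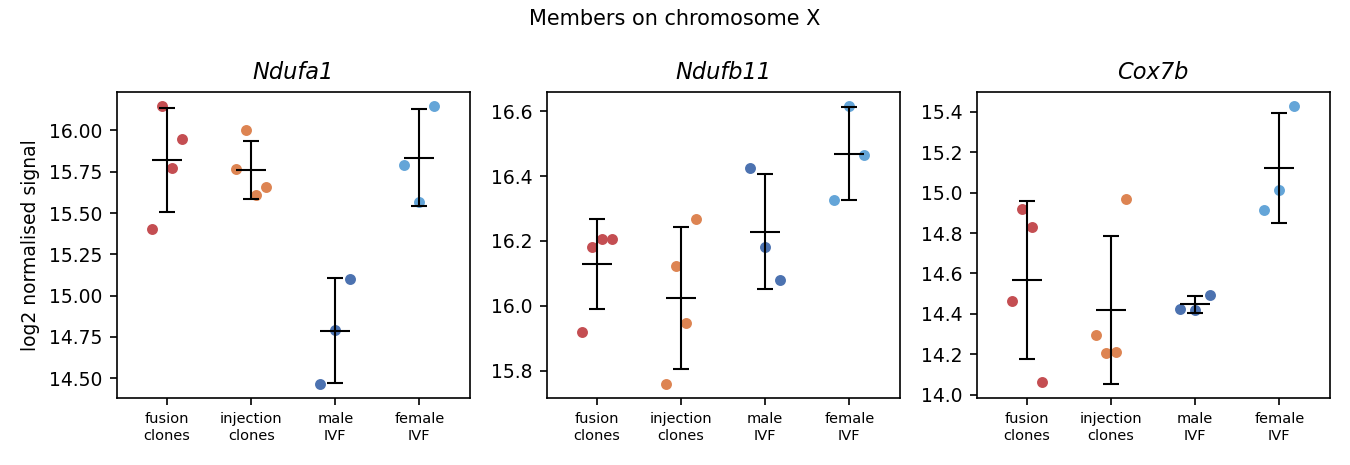
Log2 normalised signal on each array (points) with group mean and SD (bars; n = 4, 4, 3 and 3) for the 3 members on the X chromosome. In *Ndufa1* the 3 male IVF embryos (14.46 to 15.10) lie below all 11 female embryos, in *Ndufb11* all clones lie below the female IVF range and in *Cox7b* they overlap its lower end; the axes do not start at 0.

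Outside the X chromosome the member with the smallest p between male and female IVF embryos was *Ndufa10*, at 13.21, 13.97 and 13.32 in male and 12.14, 12.88 and 12.74 in female embryos, a difference of 0.92 (SE 0.34, adjusted p = 0.627) without overlap. Over all members 49 genes had a higher and 33 a lower mean in male embryos, with a median of 0.13 against -0.03 over all probes.

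A contrast of all 8 clones with all 6 IVF embryos in 1 fit of the 4 groups was added after the data were seen. It sets female clones against controls of both sexes and shares the confounding with slide and scanner. In it 34 of 82 members were called (41.5%), 30 lower and 4 higher, against 22.2% of all 35010 probes, 13.1% lower and 9.15% higher. Among the probes at level 14 or above 37.0% were called, 19.4% lower. The median difference was -0.33 against -0.07 over all probes. Values of 12 members lay wholly below the IVF values (background 4.02%) and of 2 wholly above (background 2.23%). Of the 17932 tested probes above background on all 14 arrays, 1227 lay wholly below and 651 wholly above.

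By complex, 14 genes fell and 1 rose in complex I, 0 of 4 were called in complex II, 3 fell and 1 rose in complex III, 5 fell and 1 rose in complex IV, and 7 fell and 1 rose in complex V. The lowest called member was *Atp5j2* at -1.15 (SE 0.19, adjusted p = 0.00202), and its Fo partners *Atp5l* at -0.99 (SE 0.30, adjusted p = 0.038) and *Atp5k* at -0.90 (SE 0.13, adjusted p = 0.00109) were called too. *Ndufb5* was at -0.94 (adjusted p = 0.00157), *Uqcrh* at -0.91 (adjusted p = 0.000796) and *Ndufb4* at -0.80 (adjusted p = 0.000917). The 4 that rose were *Atp5s* at 1.1 (SE 0.18, adjusted p = 0.00205), *Cox6b2* at 0.89 (SE 0.19, adjusted p = 0.00679), *Uqcrb* at 0.63 (SE 0.12, adjusted p = 0.00499) and *Ndufa1* at 0.48 (SE 0.15, adjusted p = 0.0442), the last in a contrast where the IVF mean holds the low male values. The call of *Ndufa1* was lost when any of 11 of the 14 arrays was left out, with adjusted p of 0.0531 to 0.0956. *Atp5s*, the gene that rose under complex V, is not a subunit. Its second probe was at -1.25 in fusion and -0.42 in injection clones against female IVF embryos.

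Neighbouring gene lists were read in the same fits. Of 11 electron carriers and respiratory proteins outside the name rule, such as cytochrome c, *Gpd2*, the mitochondrial glycerol-3-phosphate dehydrogenase, rose by 1.77 in fusion clones (adjusted p = 0.036) and was 1.45 higher in injection clones (adjusted p = 0.0601), and the list medians were 0.02 and -0.10. None of 18 assembly factors was called in either clone group (2 in each at an unadjusted p below 0.05), with medians of -0.09 and -0.10. Of 21 genes tested of the tricarboxylic acid cycle and pyruvate dehydrogenase, *Sucla2*, a subunit of succinyl-CoA synthetase, rose in fusion clones by 0.82 (adjusted p = 0.0361) and in injection clones by 0.79 (adjusted p = 0.0479), against list medians of -0.24 and -0.37.

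Among regulators of mitochondrial biogenesis, 5 of 19 tested were called in fusion clones and 0 of 20 in injection clones (limma; 9.49% and 3.67% of all probes were called, and 7 of the list in each group had an unadjusted p below 0.05). *Gabpb2*, a subunit of nuclear respiratory factor 2, rose by 2.97 (adjusted p = 0.0258) and *Ppargc1b*, a coactivator, by 1.85 (adjusted p = 0.0348) in fusion clones. *Gabpb2* was well above background on 11 of 14 arrays and its female mean of 4.28 lay near the lowest value allowed, so its difference is not exact. The male minus female difference of IVF embryos was 2.28 in *Gabpb2* (adjusted p = 0.659) and 1.90 in *Ppargc1b* (adjusted p = 0.543), which did not pass. Neither gene passed in all clones against all IVF embryos, at 1.38 (adjusted p = 0.204) and 0.69 (adjusted p = 0.144). *Peo1*, the helicase of mitochondrial DNA, fell by 1.07 (adjusted p = 0.0235), *Tfb2m*, a mitochondrial transcription factor, fell by 1.01 (adjusted p = 0.0482) and *Esrra*, a nuclear receptor of respiratory genes, fell by 0.97 (adjusted p = 0.0152). *Esrra* was at -1.49 in injection clones, which did not pass (adjusted p = 0.113). The subunits encoded in mitochondrial DNA had no probe under the names searched and are not analysed here.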

How the data were processed

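RNA of 14 single-embryo samples of the mouse was amplified, labelled with Cy3 and hybridised to Agilent whole mouse genome arrays, 1 per sample. The deposited scanner files give a processed signal intensity per spot, which the authors obtained with Agilent Feature Extraction (version 10.5.1 in the submitters' processing notes) by background subtraction, before any normalization between arrays. The deposited log2 table holds the authors' processed values of the same arrays. Its columns, with medians of -0.227 to 0.161, correlated fully with the scanner values, and it was used as an alternative only.

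Outlier spots by the scanner's own marks, 101 to 338 on an array, were treated as missing. Signals were quantile normalized (the methods' "quintile" was read so), floored at 16, log2 transformed and averaged per probe. A probe entered a test if 1 or more arrays of its groups had it well above background. Tests were run with limma 3.58.1 (R 4.3.3; lmFit, eBayes) on those groups only, with Benjamini-Hochberg adjustment over all probes tested and a threshold of 0.05. The code was tested on simulated data, and figures were drawn with matplotlib 3.10.9 in Python 3.11.15. A second threshold, from the study's methods, was an unadjusted p below 0.05 and at least 2-fold. The number of arrays limits the precision.

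Groups came from the labels, each clone group was compared with female IVF embryos, clones with each other and male with female IVF embryos. Since samples are single embryos by the extraction text only, p-values measure the spread between these samples. Of 82 gene names, 78 matched RefSeq by symbol and 4 by accession. Genes given with all values were those called in a complex with the largest changes, *Sdha* to *Sdhd*, isoform sets, genes with the smallest p and X-linked members. The members, lists and alternatives (scaling, floor, filter, probes, samples in the fit, replicate block, arrays left out) were chosen with earlier results of these data known. Male and female IVF samples of the same number deviated together weakly (correlations 0.108, 0.128 and 0.109). Fusion and injection clones of number 3 reached 0.105, so values of this size do not establish a pairing. The replicate block changed no call of a member between male and female IVF embryos.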

Additional observations from a re-analysis of the deposited data

Results flagged for a closer look

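In groups of 4 arrays, a sample was picked out when its gap to the nearest other exceeded Dixon's 95% critical share of the group's range. Of 72 groups 8 had such a sample, and chance picks about 1 in 20. Fusion clone 4 read 13.60 in *Ndufb4*, with the other fusion clones at 13.79 to 13.81, and 4.04 in *Cox4i2*, with the others at the lowest value allowed of 4.0. Fusion clone 1 read 15.92 in *Ndufb11* (others 16.18 to 16.21), and its median over complex I was -0.27 against -0.10 to -0.07. Injection clone 1 read 11.97 in *Sdhc* (others 12.86 to 13.02). Injection clone 2 read 11.69 in *Cox7a2l* (others 12.55 to 12.67) and 4.54 in *Cox4i2* (others 4.0). Injection clone 4 read 14.97 in *Cox7b* (others 14.21 to 14.29). In *Cox4i2* the other 3 values of each group were at the lowest value allowed, where any value above it is picked out, and no fusion array had it well above background, so these 2 of the 8 carry no weight. The causes were not tested.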

How the results depend on the processing

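The number of members called depended on the processing. The median over complex III turned positive when a gene's probes were averaged, from -0.12 to 0.14 in fusion clones, from -0.23 to 0.05 in injection clones and from -0.37 to 0.14 in all clones against all IVF embryos. In fusion clones against female IVF embryos 4 members were called, against 2 with a floor of 1, 9 at a floor of 32, 2 from the authors' log2 table, 8 with no filter on dim probes, 9 with all 4 groups in 1 fit, 10 with a variance trend and 7 over all member probes. Leaving out 1 array gave 1 to 6 calls and medians of -0.33 to -0.11. In injection clones 4 were called, against 2 after a shift to the 75th percentile, 0 from the authors' log2 table (14 at an unadjusted p below 0.05), 1 when the floor was 1 and 10 with the 4 groups fitted jointly, and leaving out 1 array gave 0 to 6 calls and medians of -0.36 to -0.20. With the replicate number as a block, 0 members and 0.0% of all probes were called in each clone group, with 16 and 19 members at an unadjusted p below 0.05. Same-numbered clone and IVF samples correlated at -0.06 to 0.06, which neither establishes nor excludes a pairing. Medians under the other settings were -0.27 to -0.13 and -0.31 to -0.21. Fusion against injection clones and male against female IVF embryos gave 0 calls under every alternative. Calls in all clones against all IVF embryos numbered 27 to 40. In the authors' log2 table the median of all probes was 0.05 and 0.07 in the clone contrasts, against -0.12 and -0.07 here. A slide block was not run, because each slide holds 1 group. The causes were not tested.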

Other observations

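Probes of 1 gene did not always move together. Of the 25 genes with several probes, the signs of their differences were mixed in 12 genes in fusion clones and in 10 in injection clones against female IVF embryos. The dim second probe of *Cox5a*, on a transcript outside RefSeq, was higher by 4.12 in fusion clones (adjusted p = 0.0143) and by 2.92 in injection clones (adjusted p = 0.0353), while the brightest probe was at -0.35 and -0.53. The second probe of *Uqcrq* was at 3.62 (adjusted p = 0.0546) and 1.53 (adjusted p = 0.516), against -0.35 and -0.43 for the brightest. The second probe of *Atp5s* was at -1.25 (adjusted p = 0.0432) and -0.42, against 0.75 and 0.80.

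A further 9 genes carry member names in RefSeq but older names on the array. None was called in either clone group. *Ndufaf7*, a complex I assembly factor, was at 2.65 in fusion clones (adjusted p = 0.0546) and 1.84 in injection clones (adjusted p = 0.0601). Its male minus female difference of IVF embryos was 2.16 (limma, adjusted p = 0.404). All clones against all IVF embryos gave 1.16 (limma, adjusted p = 0.0735). *Ndufaf3*, another, was at 0.86 (adjusted p = 0.111) and 1.45 (adjusted p = 0.0508). In all clones against all IVF embryos *Ndufaf3* rose by 0.90 (adjusted p = 0.00663) and *Uqcr10*, a small subunit of complex III, fell by 0.49 (adjusted p = 0.0106). *Cox7b2*, an isoform of *Cox7b*, was above background on 5 arrays, all of clones, so no exact difference from the IVF embryos is given.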
